A study of Rattus norvegicus with 23 samples.

Results

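Late culture of the empty-vector PC12 line was described by setting its 3 small RNA libraries of 10 d after splitting against its 3 libraries of 3 d, which are 6 of the 23 libraries of the series. PC12 is an established male rat pheochromocytoma line, a tumour of adrenal chromaffin cells that stands in for neuroendocrine cells in culture and can take on neuron-like features. The cells compared had been transfected with the empty pcDNA3 plasmid, selected with G418 and grown in F-12K medium with horse and fetal bovine serum on poly-L-lysine, at both times alike. A second line made in the same way expressed α1ACT, the C-terminal transcription factor from the calcium channel gene CACNA1A, tagged with 3xFlag and carrying 11 glutamine repeats. RNA was taken from each line 6 h, 24 h, 3 d and 10 d after the cells were split. The 6 vector libraries and the 6 α1ACT libraries of 3 d and 10 d share no library, so the α1ACT line is used here as a separate view of the same step. The sources used here do not give how many clones make up each line, nor confluence, feeding or passage between 3 d and 10 d.

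MicroRNAs (miRNAs) are short RNAs cut from hairpin precursors by Drosha and Dicer. One strand of the hairpin, from its 5′ side (5p arm) or its 3′ side (3p arm), is loaded into an Argonaute protein, and its seed, the bases from position 2 to position 8, pairs with messenger RNAs and lowers their stability and translation. miRNAs with the same seed share many predicted targets, and neighbouring hairpins are often cut from a single transcript. In cultured cells the miR-17-92 clusters are known as products of MYC- and E2F-driven transcription in cycling cells, while let-7, miR-29 and several neuronal miRNAs are known to accumulate as cells mature.

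Sequences of the miRNAs on which the comparison turns are given 5′ to 3′ with the seed in capitals, from RefSeq for assembly GRCr8. The first group was higher at 10 d and holds 2 pairs with a shared seed, ACCCGUA in miR-100-5p and miR-99b-5p and UUUGCGA in miR-450a-5p and miR-450b-5p.
miR-100-5p: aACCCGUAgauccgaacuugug
miR-99b-5p: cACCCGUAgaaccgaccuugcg
miR-450a-5p: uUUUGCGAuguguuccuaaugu
miR-450b-5p: uUUUGCGAuguguuccuaaua
miR-338-3p: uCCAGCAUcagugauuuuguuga
miR-153-3p: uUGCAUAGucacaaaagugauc
miR-192-5p: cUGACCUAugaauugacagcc
miR-29b-3p: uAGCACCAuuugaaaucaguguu

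The next group was lower at 10 d. miR-92a-3p and miR-25-3p share the seed AUUGCAC, and the last 4 are shown because they are rich in G and C, the base composition that set the lower miRNAs apart from the rest.
miR-92a-3p: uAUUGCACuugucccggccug
miR-25-3p: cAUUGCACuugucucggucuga
miR-106b-3p: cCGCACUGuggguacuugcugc
miR-484: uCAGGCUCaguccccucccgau
miR-324-3p: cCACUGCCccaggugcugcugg
miR-760-3p: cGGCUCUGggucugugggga

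Among the 6 libraries, the total of miRNA counts was 448557, 2784837 and 3849102 at 3 d and 4341194, 3075122 and 3725394 at 10 d. The first 3 d library was thus far shallower than the others, and a count of 0 in it allows up to 6.73 CPM (3 counts; CPM are depth-normalized counts scaled with TMM factors), against 0.752 to 1.03 CPM in the other 5. Between 70.4% and 72.8% of each total came from its 10 most abundant entries. The authors deposited a pair of count tables, named for the programs sRNAbench and Chimira, and the sRNAbench table is used here. The tables disagree on 1 library of the comparison: the column of vector 10 d replicate 2 in one matches that of vector 6 h replicate 2 in the other. Counts of calls are therefore given also with these columns exchanged, and without this library and the shallow one. Under its sRNAbench name, vector 10 d replicate 2 had a Spearman's rho of 0.982 and 0.992 with the other 10 d libraries, beside 0.983 between those. With the columns exchanged, calls went from 68 to 44 in the sRNAbench table and from 52 to 101 in the Chimira table. No label ties the replicates to separate cultures, so the p-values speak of the spread among these libraries, which may be technical. The summed level of 6 endocrine hairpins was high at both times, at 204909 to 221823 CPM at 3 d and 177807 to 199749 CPM at 10 d. Most of it was miR-375-3p, while the endocrine miR-7a-5p and miR-7a-1-3p were rare, at means of 6.48 and 12.8 CPM. Of 18 neuronal hairpins 13 had counts, at a summed 5101 to 5395 CPM at 3 d and 4994 to 5223 CPM at 10 d, while mir-124, the defining miRNA of mature neurons, was at 0.

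Between 3 d and 10 d the vector line changed a broad set of miRNAs by modest steps. At a mean level of 10 CPM or more, the largest rise was that of miR-100-5p, followed by miR-501-3p, miR-450b-5p, miR-99b-5p and miR-338-3p. The deepest falls were those of miR-423-3p, miR-760-3p, miR-92a-3p and miR-328a-3p. In the quasi-likelihood test of edgeR, called at a Benjamini-Hochberg adjusted p below 0.05, 68 of the 269 tested miRNAs (25.3%) differed, 35 higher (13%) and 33 lower (12.3%) at 10 d. At an unadjusted p below 0.05 there were 107. In bulk RNA, fewer cells of a type and less of a miRNA per cell cannot be told apart.

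The balance of the split rests on the scaling. With upper-quartile factors, under which the median of all 269 entries moved to 0.25 on the log2 scale, 79 were called higher and 13 lower. With library totals as the scale, where that median was -0.09, the split was 24 higher and 45 lower. With the TMM factors used throughout, the median was 0.01. All 68 kept their sign under both scalings.

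The changes were small beside the range of levels. By absolute size the 68 had a median log2 fold change of 0.60, and a 2-fold change was reached by 10, 4 of them higher and 6 lower. In 63 of the 68 the 3 libraries of 3 d and the 3 of 10 d did not overlap, and the same was true of 108 of all 269 entries (40.1%). The 68 took 54.0% of the counts at 3 d and 54.7% at 10 d. Without the shallow 3 d library 63 were called, without vector 10 d replicate 2 there were 66, and without both 54. With the disputed pair of columns exchanged in the sRNAbench table the count was 44 (26 higher, 18 lower), of which 37 were among the 68. Those not kept included miR-328a-3p, miR-324-3p, miR-484, miR-143-3p, miR-25-3p, miR-218a-5p, miR-137-3p, miR-30a-5p and miR-375-3p. Without vector 10 d replicate 3 it was 44 as well, of which 42 were among the 68.

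Each call was computed again in 20 other settings, which changed the scaling, the filter, the test or the table, left out libraries, or added a term for base composition. In every setting that tested them 16 of the 68 were called. The 13 higher ones were miR-100-5p, miR-99b-5p, miR-450a-5p, miR-450b-5p, miR-322-3p, miR-338-3p, miR-153-3p, miR-192-5p, miR-29b-3p, miR-181c-5p, miR-183-5p, miR-193a-3p and miR-3068-3p. The 3 lower ones were miR-423-3p, miR-92a-3p and miR-106b-3p. No sequence was matched to miR-423-3p, so the term for base composition left it unadjusted and that setting could not test its call.

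**Figure D1:**
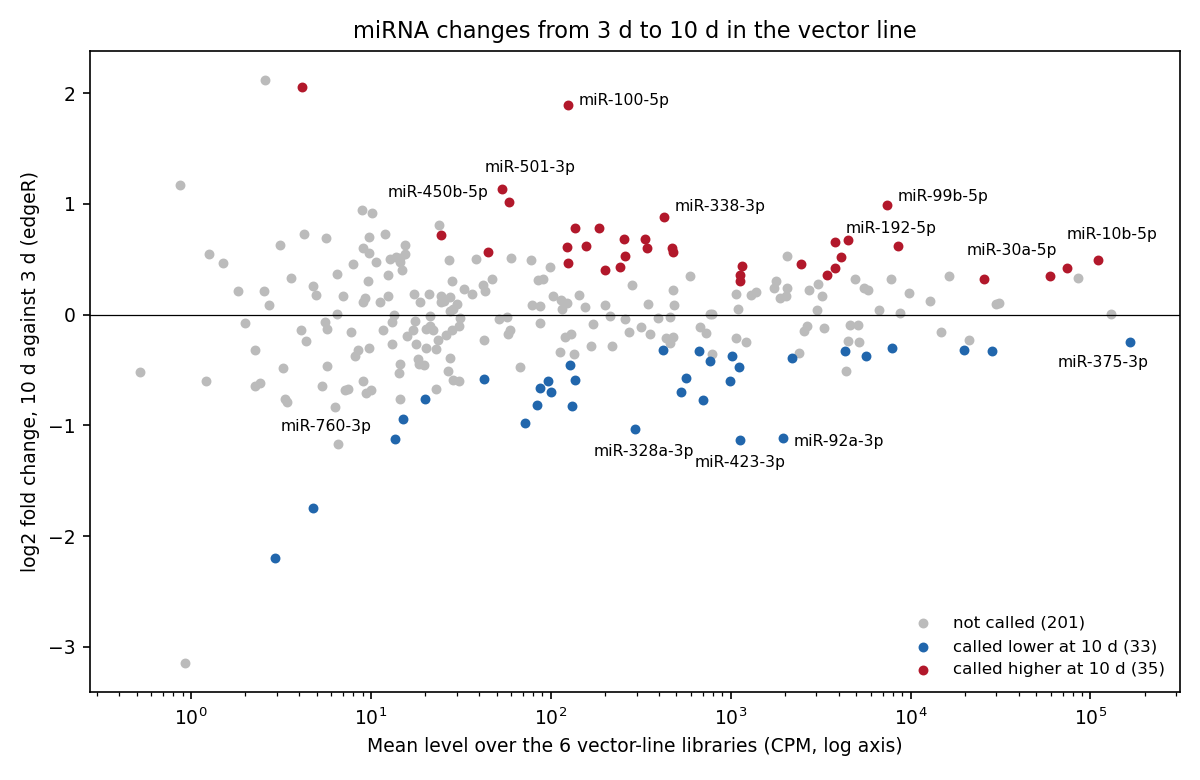
Each point is 1 of 269 miRNAs in the vector line, with its mean level over the 6 libraries on the x axis (CPM, log axis) and its fitted log2 fold change of 10 d against 3 d on the y axis. The 35 called higher (red) and 33 called lower (blue) spread over the range of levels, and the most abundant entry, miR-375-3p, lies at -0.25.

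Of the miRNAs that rose, miR-100-5p belongs to the miR-99/100 family, known for lowering MTOR and the IGF1 receptor. It measured 62.8, 50.6 and 49.8 CPM at 3 d and 231, 122 and 232 CPM at 10 d. Every 10 d library lay above every 3 d library, with the second 10 d library well below the other 2. The log2 fold change was 1.89 ± 0.23 (here and throughout ± is the standard error of a log2 fold change), with an edgeR Benjamini-Hochberg adjusted p of 2.64e-06. Its far more abundant seed partner miR-99b-5p measured 5739, 5412 and 3788 CPM at 3 d and 12862, 7647 and 9144 CPM at 10 d. Here too the groups did not overlap, although the 10 d libraries were spread widely. Its log2 fold change was 0.99 ± 0.21 (edgeR, Benjamini-Hochberg adjusted p = 0.00123).

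miR-99b is cut from 1 transcript with let-7e and miR-125a, whose 5p arm descends from the lin-4 miRNA of worms. miR-125a-5p measured 3304, 3664 and 3461 CPM at 3 d and 6010.3, 5355 and 5276 CPM at 10 d, and its 3 libraries of 10 d were all above those of 3 d. The log2 fold change was 0.67 ± 0.21 (edgeR, Benjamini-Hochberg adjusted p = 0.0189). That call was held in 12 of 20 other settings, and it was lost whenever any 1 of the 6 libraries was left out. Its seed relatives miR-125b-5p and miR-351-5p, at log2 fold changes of 0.53 and 0.28, did not pass the test. Of 12 tested arms of the group of miR-10, miR-99, miR-100 and miR-125, 4 rose and 2 fell, and the median log2 fold change was 0.22 beside 0.01 over all 269, of which 13% rose and 12.3% fell. The counts of the groups that follow stand against the same shares. In the α1ACT line the median of the 12 arms was 0.02, and of the 4 that rose only miR-100-5p was called there.

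The 4 that rose include miR-10b-5p, a miRNA encoded beside Hoxd4 and among the most abundant in these cells. It measured 78266, 97759 and 98891 CPM at 3 d and 125209, 125075 and 136343 CPM at 10 d. The groups did not overlap, and the lowest value was that of the shallow 3 d library. With an edgeR Benjamini-Hochberg adjusted p of 0.0473 it lay just inside the threshold, and it was called in 5 of 20 other settings.

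On the X-linked cluster of miR-322, miR-503, miR-351, miR-450a, miR-450b and miR-542, known for restraining the cell cycle, 4 of 9 tested arms rose and none fell. The median of the 9 was 0.28. miR-450b-5p measured 26.9, 40.9 and 43.7 CPM at 3 d and 87.5, 74.0 and 77.2 CPM at 10 d, a log2 fold change of 1.02 ± 0.18 (edgeR, Benjamini-Hochberg adjusted p = 0.000113). miR-450a-5p measured 269, 256 and 295 CPM at 3 d and 442, 401 and 407 CPM at 10 d, a log2 fold change of 0.61 ± 0.11 (edgeR, Benjamini-Hochberg adjusted p = 0.00013). In both, all libraries of 10 d exceeded all of 3 d. As their printed sequences show, the pair is nearly identical, and how reads were split between them depends on the counting by the authors.

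Both arms of miR-322 rose as well, the 3p arm by 0.68 ± 0.12 and the 5p arm by 0.44 ± 0.12 on the log2 scale. miR-322-5p has the seed AGCAGCA, which it shares with miR-16-5p. That abundant miRNA fell, measuring 35637, 25459 and 33259.5 CPM at 3 d and 23944, 25852 and 25566 CPM at 10 d. The groups of miR-16-5p overlapped, since the second 3 d library lay within the range of 10 d, and its fall of -0.32 ± 0.12 (edgeR, Benjamini-Hochberg adjusted p = 0.039) was lost without the shallow library, vector 3 d replicate 3, vector 10 d replicate 1 or vector 10 d replicate 3. The call of miR-322-5p was lost without vector 10 d replicate 3. Of 7 tested arms of the miR-15, miR-16, miR-195 and miR-497 family miR-16-5p was the only one called.

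Among neuronal miRNAs 4 of 17 tested arms rose and 2 fell, beside 13% and 12.3% of all 269, with a median of 0.03. miR-153-3p, whose hairpin lies in Ptprn2, the gene of a dense-core vesicle protein, measured 141, 130.3 and 138 CPM at 3 d and 236, 227 and 239 CPM at 10 d. The libraries within each time were tight and the groups far apart, at a log2 fold change of 0.78 ± 0.13 (edgeR, Benjamini-Hochberg adjusted p = 5.57e-05). miR-137-3p, known for its part in neuronal maturation, measured 98.6, 74.3 and 121 CPM at 3 d and 178, 141 and 129 CPM at 10 d. Its highest 3 d library came close to its lowest of 10 d. miR-598-3p and miR-138-5p rose by 0.46 and 0.36 on the log2 scale.

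Other neuronal miRNAs moved the opposite way. miR-218a-5p, a motor neuron miRNA encoded in Slit2 and Slit3, measured 1007, 1310.0 and 1246 CPM at 3 d and 764, 758 and 846 CPM at 10 d. Its groups did not overlap, and the log2 fold change was -0.60 ± 0.16 (edgeR, Benjamini-Hochberg adjusted p = 0.00995). miR-344b-1-3p, from a rodent cluster of brain miRNAs, changed by -0.47 ± 0.12. Of the 4 neuronal miRNAs that rose, miR-153-3p alone kept its call when the disputed columns were exchanged and when any single library was left out. The call of miR-218a-5p was lost without vector 3 d replicate 2.

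miRNAs typical of endocrine cells were split, 2 of 8 arms higher and 2 lower. miR-375-3p, which restrains hormone secretion and is the most abundant entry here, measured 173098, 178710.0 and 190561 CPM at 3 d and 154962, 158865 and 142181 CPM at 10 d. All 10 d libraries lay below all 3 d libraries by a narrow gap. The log2 fold change was -0.25 ± 0.09 (edgeR, Benjamini-Hochberg adjusted p = 0.039), and it was called in 12 of 20 other settings. Its rare 5p arm, at 0, 8.1 and 5.63 CPM at 3 d and 1, 1.72 and 1.14 CPM at 10 d, was also called lower, but the groups overlapped through the 0 of the shallow library.

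From the miR-183/96/182 cluster, known from sensory and neuroendocrine cells, miR-183-5p measured 3244, 3745 and 3165 CPM at 3 d and 5616, 4523 and 4406 CPM at 10 d. The groups stood apart, at a log2 fold change of 0.52 ± 0.11 (edgeR, Benjamini-Hochberg adjusted p = 0.00119). miR-96-5p of the same cluster measured 74.0, 109 and 112 CPM at 3 d and 149, 157 and 222 CPM at 10 d. Here the first 3 d library was the lowest and the third 10 d library the highest. Its log2 fold change of 0.79 ± 0.24 (edgeR, Benjamini-Hochberg adjusted p = 0.0204) did not hold without the shallow library, vector 3 d replicate 2 or vector 10 d replicate 3. The far more abundant miR-182 of this cluster, at a mean of 31091 CPM, did not pass, at 0.11 ± 0.11 on the log2 scale. miR-183-3p, at 0.12 ± 0.22, did not pass either. In the α1ACT line neither miR-183-5p (0.28) nor miR-96-5p (0.59) was called.

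miR-192-5p, a miRNA induced by p53 that is known for slowing the cell cycle, measured 3002, 3154 and 2716 CPM at 3 d and 4941, 4328 and 4748 CPM at 10 d. All values of 10 d lay well above those of 3 d, with a log2 fold change of 0.66 ± 0.09 (edgeR, Benjamini-Hochberg adjusted p = 2.81e-06). It was the 1 of 5 tested p53-linked arms to pass, where 25.3% of all 269 did. Its neighbour miR-194-5p, also on that list, did not pass, at a log2 fold change of 0.08 ± 0.13. The direct p53 target miR-34a-5p measured 98.6, 56.4 and 84.1 CPM at 3 d and 58.2, 43.7 and 65.3 CPM at 10 d, so its groups overlapped, and at a log2 fold change of -0.47 ± 0.18 it did not pass (edgeR, Benjamini-Hochberg adjusted p = 0.0557).

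Several families known from mature cells had 1 member called. miR-29b-3p, of a family that lowers collagens and other matrix proteins, measured 202, 248 and 312 CPM at 3 d and 471, 373 and 410.2 CPM at 10 d, a log2 fold change of 0.69 ± 0.14 (edgeR, Benjamini-Hochberg adjusted p = 0.000913). The more abundant miR-29a-3p and miR-29c-3p, with the same seed, stood at 0.32 and 0.30 and did not pass the test. The median over the 6 tested arms of the family was 0.41. miR-181c-5p, a regulator known from lymphocytes and neurons, measured 6452, 6470.3 and 7349 CPM at 3 d and 11394, 10161 and 9553 CPM at 10 d (log2 fold change 0.62 ± 0.10). All 5 tested miR-181 arms had positive values, with a median of 0.31, and this one alone was called. miR-26a-5p, encoded in a gene of the Ctdsp family of neuronal gene silencers, rose by 0.32 ± 0.10 on the log2 scale as 1 of 3 tested arms. Its call held in 13 of 20 other settings. The losses included those without vector 3 d replicate 2 or vector 10 d replicate 1, with the disputed columns exchanged and with the term for base composition.

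The let-7 family, known for blocking cell growth genes, had 1 call among 19 tested arms, and the median was 0.01. The one called, let-7d-3p, fell, at 832, 623 and 578 CPM at 3 d and 440.5, 458 and 451 CPM at 10 d. The shallow library held its highest value. Its call held in 13 of 20 other settings and was lost without the shallow library, without vector 10 d replicate 1 or replicate 3, with the disputed columns exchanged and in the Chimira table, and its log2 fold change ranged up to -0.09. With upper-quartile factors 6 of the 19 were called higher, and the family's median minus that of all entries was then -0.01. The most abundant member, let-7f-5p, measured 86054, 60447 and 81232 CPM at 3 d and 101664, 93908 and 90750.4 CPM at 10 d. Its groups did not overlap, and at a log2 fold change of 0.33 ± 0.13 it missed the threshold (edgeR, Benjamini-Hochberg adjusted p = 0.0557).

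In the miR-30 family the members went separate ways. Both arms of miR-30a rose, the 5p arm measuring 65215, 59085 and 64906 CPM at 3 d and 87419.7, 77678 and 88604 CPM at 10 d. All 10 d values of that arm were above those of 3 d. miR-30d-5p, with a closely related sequence, fell, measuring 22736, 20614 and 22590.2 CPM at 3 d and 18986, 16992 and 16842 CPM at 10 d. The log2 fold changes were 0.42 ± 0.09 and -0.32 ± 0.08 (edgeR, Benjamini-Hochberg adjusted p = 0.00112 and 0.00615). For the other arm, miR-30a-3p, the call was held in 5 of 20 other settings. Of the miR-23, miR-27 and miR-24 clusters 2 of 10 arms rose, among them miR-23a-3p at 0.60, and miR-27b-5p was lower, at -0.32 on the log2 scale. The call of miR-27b-5p held in 12 of 20 other settings, and its sign turned in the Chimira table and with the disputed columns exchanged.

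Other miRNAs that rose included miR-338-3p, which lies in an intron of Aatk, a kinase gene of neurons, and is known from oligodendrocytes. It measured 249, 286 and 360.1 CPM at 3 d and 521, 576 and 578 CPM at 10 d, with no overlap and a log2 fold change of 0.88 ± 0.14 (edgeR, Benjamini-Hochberg adjusted p = 2.78e-05). Its 5p arm rose by 0.57 ± 0.17. Of miR-219a, another glial miRNA, the arm miR-219a-1-3p, at 20.2, 20.3 and 19.3 CPM at 3 d and 13.3, 10.3 and 7.13 CPM at 10 d, fell with a log2 fold change of -0.95 ± 0.29, and miR-219a-5p did not pass. The call of miR-219a-1-3p held in 13 of 20 other settings and was lost without vector 3 d replicate 2 or vector 10 d replicate 3.

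Of 7 tested arms from the X-linked introns of Clcn5, a chloride channel gene, 2 rose. miR-501-3p measured 33.6, 43.2 and 23.8 CPM at 3 d and 72.5, 57.5 and 90.1 CPM at 10 d. miR-362-3p measured 15.7, 14.5 and 24.1 CPM at 3 d and 30.4, 31.0 and 31.1 CPM at 10 d. Neither had overlapping groups. The log2 fold change of miR-501-3p was 1.14 ± 0.32 (edgeR, Benjamini-Hochberg adjusted p = 0.0134). The more abundant miR-532-5p from the same introns measured 861, 973 and 806 CPM at 3 d and 422, 849.9 and 792 CPM at 10 d. Its first 10 d library stood well below the other 5, and it did not pass. Leaving out vector 3 d replicate 3, vector 10 d replicate 1 or vector 10 d replicate 3 ended the call of miR-501-3p, and that of miR-362-3p held in 9 of 20 other settings. miR-22-3p, among the 5 most abundant called, rose by 0.35 ± 0.11 and was called in 11 of 20 other settings.

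**Figure D2:**
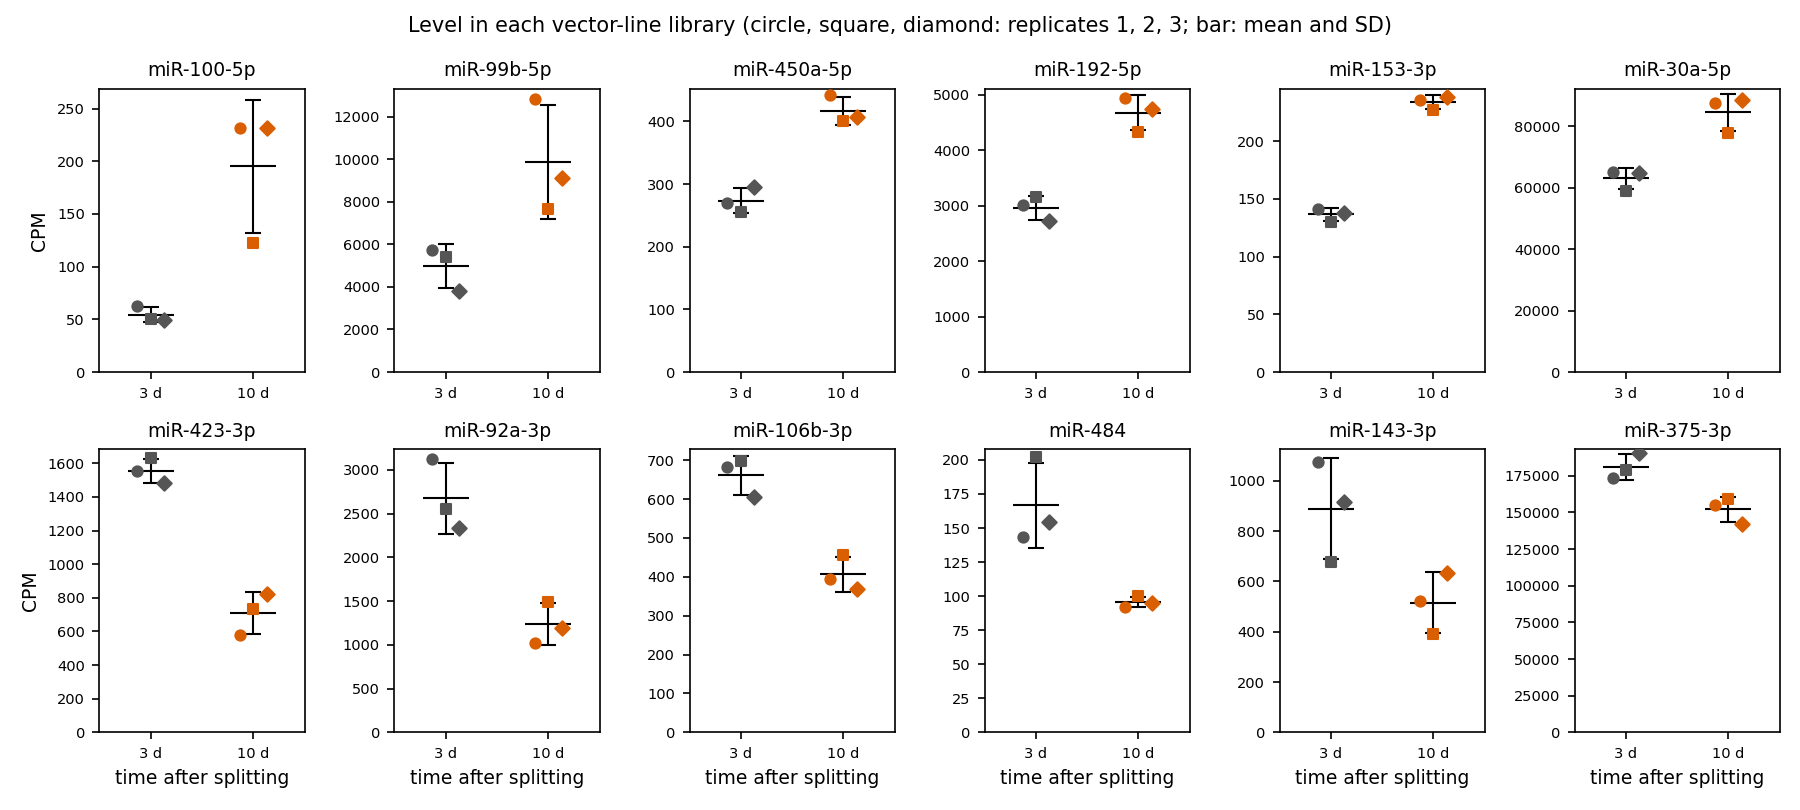
Level of 12 miRNAs in each of the 6 vector-line libraries (y axis, CPM, from 0), at 3 d (grey) and 10 d (orange), with the replicate shown by the symbol and the bar and whiskers giving mean and SD of 3 libraries. The upper 6 were higher at 10 d and the lower 6 were lower, and in none of the 12 do the libraries of the 2 times overlap.

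Of the miRNAs that fell, miR-92a-3p from the miR-17-92 clusters measured 3129, 2558 and 2342 CPM at 3 d and 1022, 1492 and 1194 CPM at 10 d. The groups were far apart, and the shallow 3 d library was the highest of the 6. Its log2 fold change was -1.11 ± 0.12 (edgeR, Benjamini-Hochberg adjusted p = 6.9e-08). These clusters are known for promoting proliferation and blocking cell death. Of their 16 tested arms, 5 fell and none rose, 13 had negative values, and the median was -0.28, while of all 269 entries 12.3% fell and 130 had negative values. With upper-quartile factors 2 were called lower and 1 higher, and the median minus that of all entries was -0.31.

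The others that fell came mainly from the miR-106b/93/25 cluster, an intronic cluster of the replication gene Mcm7. miR-106b-3p measured 681, 697 and 604 CPM at 3 d and 395, 455 and 369 CPM at 10 d, and the groups did not overlap (log2 fold change -0.70 ± 0.11; edgeR, Benjamini-Hochberg adjusted p = 5.24e-05). miR-25-3p, the seed partner of miR-92a-3p, fell more shallowly, measuring 8779, 8654 and 8697 CPM at 3 d and 6896, 7256 and 7064 CPM at 10 d. Its libraries were tight at both times, at a log2 fold change of -0.30 ± 0.09. miR-93-5p of that same cluster stood at 4708 to 5710.3 CPM at 3 d and 5871 to 6917 CPM at 10 d and did not pass, with a positive log2 fold change of 0.22 ± 0.11. miR-17-5p and miR-106b-5p, which share the seed AAAGUGC with miR-93-5p, fell with log2 fold changes of -0.46 and -0.33. The calls of miR-17-5p and miR-106b-5p were lost without the shallow library, that of miR-17-5p also without vector 3 d replicate 3, that of miR-106b-5p also without vector 10 d replicate 3, and that of miR-25-3p without vector 10 d replicate 1.

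Among the rest, miR-423-3p had the smallest p of the comparison. It measured 1551, 1630.1 and 1485 CPM at 3 d and 578, 731 and 821 CPM at 10 d, with no overlap. The log2 fold change was -1.13 ± 0.11 (edgeR, Benjamini-Hochberg adjusted p = 2.11e-08). miR-328a-3p measured 428, 382 and 381 CPM at 3 d and 206, 167 and 204 CPM at 10 d, a log2 fold change of -1.03 ± 0.14. miR-324-3p, from within Acadvl, measured 94.2, 99.3 and 94.3 CPM at 3 d and 47.9, 37.5 and 60.7 CPM at 10 d and fell with a log2 fold change of -0.98 ± 0.18. All 3 had clearly separate groups.

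miR-484, whose precursor is a transcript that bypasses Microprocessor cleavage, measured 143, 202 and 155 CPM at 3 d and 92.3, 99.8 and 94.6 CPM at 10 d. Its 10 d libraries lay within a few CPM of each other and below all of 3 d (log2 fold change -0.82 ± 0.15; edgeR, Benjamini-Hochberg adjusted p = 0.00013). miR-320-3p and miR-877, listed with it as miRNAs that are independent of Microprocessor or atypical, did not pass, at -0.26 and 0.50. Further miRNAs that fell were miR-760-3p at a log2 fold change of -1.12, miR-296-3p at -0.82, miR-671 at -0.70 and miR-193b-3p at -0.77. The call of miR-760-3p was lost without vector 3 d replicate 3, and that of miR-193b-3p held in 12 of 20 other settings. miR-193b-3p has a seed partner that went the opposite way: miR-193a-3p, at 0, 2.03 and 1.61 CPM at 3 d and 5.52, 8.26 and 7.41 CPM at 10 d, was called higher with a log2 fold change of 2.06 ± 0.47. It lies below 10 CPM, outside the rule for named miRNAs, and was picked after its values were seen.

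The level of miR-193a-3p in the shallow library, 0 counts, lies under what that depth can show, and the call held without that library, as in 19 of 19 other settings that tested it. The pair is printed for its shared seed, ACUGGCC.
miR-193b-3p: aACUGGCCcacaaaguccc
miR-193a-3p: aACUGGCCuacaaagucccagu

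miR-143-3p, a miRNA of smooth muscle and other mesenchymal cells, measured 1076, 676 and 915 CPM at 3 d and 523, 389.9 and 634 CPM at 10 d. Its spread was wide, the second 3 d library came close to the third of 10 d, and its fall of -0.77 ± 0.22 (edgeR, Benjamini-Hochberg adjusted p = 0.0141) was lost without the shallow library. The summed level of mesenchymal and endothelial miRNAs, with counts in 4 of 6 hairpins, was 788 to 1188 CPM at 3 d and 502 to 791 CPM at 10 d, and mir-126b and mir-214 were at 0. Of 4 tested arms of that list miR-143-3p was the one called, and its median was 0.02. Whether other cells take part in its fall was not tested.

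Markers of blood, muscle and liver cells were low. Blood-cell miRNAs had counts in 4 of 6 hairpins, at a summed 0 to 3.04 CPM at 3 d and 2.41 to 8.53 CPM at 10 d, with mir-223 and mir-486 at 0. Of 8 muscle hairpins 1 had counts, at 0 to 13.9 and 14.8 to 18.3 CPM, and the liver miRNA mir-122 had none. Epithelial miRNAs had counts in 7 of 8 hairpins, at 473 to 506 and 387 to 462 CPM, and none of 4 tested arms was called. Glial miRNAs, with counts in all 3 hairpins, stood at 307 to 426 CPM at 3 d and 596 to 660 CPM at 10 d, and miR-338-3p made up most of both.

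Among lists of stress and signalling miRNAs, set beside 25.3% of all 269 called, each had from 0 to 1 call. Of the activity- and growth-factor-responsive miRNAs, both arms of miR-132 and of miR-212 were tested and none was called, while miR-221 and miR-222 were not among the tested entries. miR-132-3p measured 175, 133 and 148 CPM at 3 d and 116, 122 and 111 CPM at 10 d at a log2 fold change of -0.36 ± 0.18. Both arms of the hypoxia miRNA miR-210 missed the threshold, at 0.43 ± 0.20 for the 5p arm and -0.25 ± 0.13 for the 3p arm. miR-210-5p was called in 2 of 20 other settings, and in the α1ACT line it was called higher, at 1.16. miR-146b-5p, a target of NF-kappaB, was the 1 of 4 inflammation-linked arms to fall (-0.39 ± 0.14). Of 10 arms of the families miR-130, miR-148, miR-152 and miR-301 none was called, and of 4 arms of miR-191 and miR-425 only miR-425-5p fell (-0.37 ± 0.13). The calls of miR-146b-5p and miR-425-5p held in 12 of 20 and 14 of 20 other settings, and each was lost without any of several single libraries.

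The 2 arms of a hairpin are made in equal number, so they offer a comparison within 1 precursor. For 76 hairpin names both arms were tested, and for 8 both were called. In 5 of the 8, miR-106b, miR-30a, miR-322, miR-338 and miR-375, the arms moved the same way. In the other 3, miR-99b, miR-125a and miR-151, the 5p arm rose and the 3p arm fell. The miR-99b hairpin and the miR-125a hairpin are shown with the arms in capitals, 5p first.
miR-99b: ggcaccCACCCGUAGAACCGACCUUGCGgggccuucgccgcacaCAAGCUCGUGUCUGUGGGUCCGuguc
miR-125a: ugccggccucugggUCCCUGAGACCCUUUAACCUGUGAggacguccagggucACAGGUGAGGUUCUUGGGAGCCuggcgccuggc

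miR-99b-3p measured 193, 146 and 156 CPM at 3 d and 111, 107 and 104 CPM at 10 d, a log2 fold change of -0.59 ± 0.13 beside 0.99 of its 5p arm. miR-125a-3p measured 139, 90.1 and 122 CPM at 3 d and 72.2, 83.3 and 72.7 CPM at 10 d, a log2 fold change of -0.60 ± 0.15 beside 0.67. In both the 3 d and 10 d groups of the rare 3p arm were separate. miR-151 gave 0.36 ± 0.12 for its 5p arm and -0.33 ± 0.10 for its 3p arm, both of them abundant arms. The call of miR-151-5p held in 10 of 20 other settings and that of miR-151-3p in 15. Among all 76 names the arms had opposite signs in 35. These included the reverse order, as in miR-29b, with 0.69 for the called 3p arm and -0.76 for the rare 5p arm, which did not pass. Over all tested entries 19 of 125 5p arms rose and 10 fell, while 16 of 126 3p arms rose and 20 fell.

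Base composition went with the direction of change. A RefSeq mature sequence was matched to 248 of the 269 tested miRNAs, 62 of them called. The median G and C content was 45.5% in the 33 higher, 57.1% in the 29 lower and 47.8% in all 248. Across the 248 the log2 fold change correlated with G and C content at Pearson's r = -0.41 and Spearman's rho = -0.42, where all points come from the same 6 libraries. Split by composition, 14 of the 83 poorest in G and C were called higher and 3 lower, 16 and 9 of the middle 83, and 3 and 17 of the 82 richest.

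The same slope could be seen library by library. Against the mean of all libraries, the level changed per 10 percentage points of G and C by 0.05, 0.15 and 0.02 on the log2 scale in the 3 libraries of 3 d and by -0.18, -0.09 and -0.10 in those of 10 d. In the α1ACT line it was 0.12, 0.06 and 0.08 at 3 d and -0.08, -0.17 and -0.15 at 10 d, with r = -0.36 over miRNAs. With a term for G and C content of each library, an alternative chosen after seeing the data, 60 miRNAs were called (33 higher, 27 lower). Of the 68, 47 were among the 60, and all 68 kept their sign. Among those not kept were miR-760-3p, miR-324-3p, miR-296-3p, miR-99b-3p, miR-125a-3p, miR-375-3p and miR-96-5p. miR-100-5p, miR-99b-5p, miR-192-5p, miR-92a-3p, miR-106b-3p and miR-484 stayed called. The term was applied only where a sequence was matched, in 62 of the 68. The others of the 68, among them miR-423-3p, miR-328a-3p and miR-30d-5p, were not adjusted. They count among the 47 and among the signs kept.

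**Figure D3:**
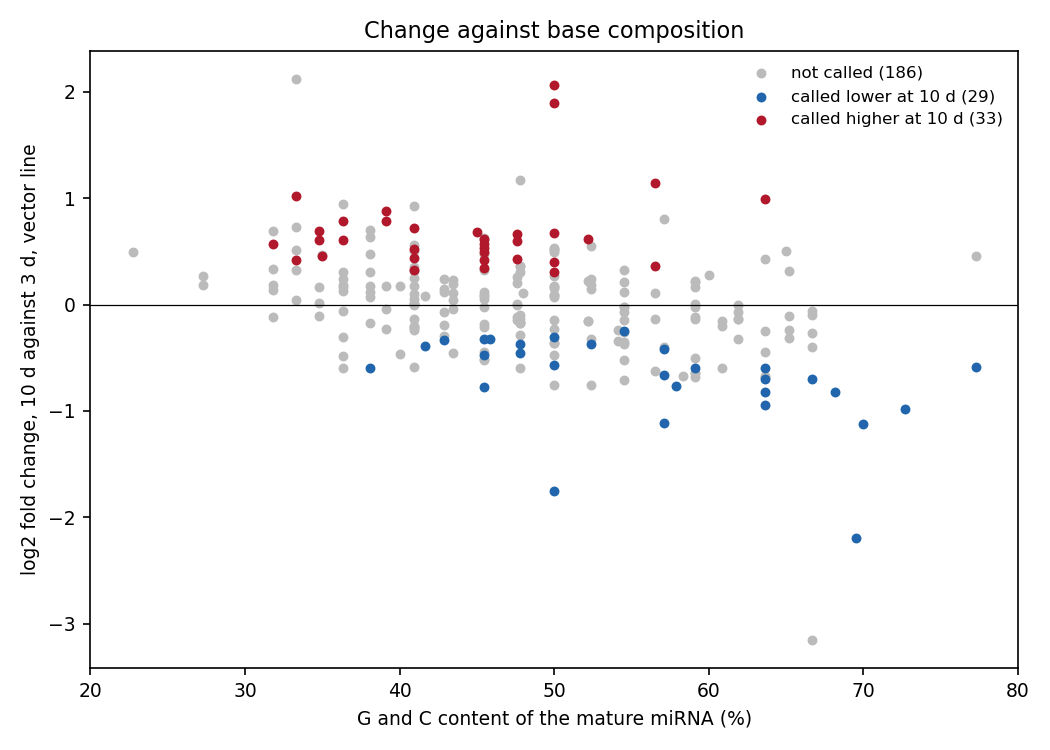
Log2 fold change of 10 d against 3 d in the vector line (y axis) against the G and C content of the mature miRNA in percent (x axis) for the 248 miRNAs with a RefSeq sequence, with those called higher in red and lower in blue. Of the 82 richest in G and C 17 were called lower, and of the 83 poorest 3 were.

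In the α1ACT line, whose libraries are all separate from those above, the 68 miRNAs moved in the same direction without exception. Of the 68, 51 (75%) were also called there in the same direction, 26 of the 35 higher and 25 of the 33 lower, where 32.7% of all tested miRNAs were called. The 51 are 58.0% of the 88 calls of the α1ACT line. Of all 269, 223 had the same sign in both lines, and the fold changes correlated at r = 0.70 and rho = 0.78 across miRNAs. Each miRNA has the same base composition and a similar level in both lines, so the points are not independent of either. The labels give neither a batch nor a date, so 10 d of culture and any handling shared by the libraries of a time cannot be told apart.

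The sizes were close for several of the miRNAs called in both lines. miR-423-3p had a log2 fold change of -1.13 in the vector line and -1.05 in the α1ACT line, and miR-92a-3p had -1.11 and -1.14. miR-192-5p gave 0.66 and 0.66, miR-338-3p 0.88 and 0.90, and miR-153-3p 0.78 and 1.00. Others were smaller in the α1ACT line and not called there: miR-125a-5p had 0.67 and 0.13, miR-10b-5p 0.49 and 0.09, and miR-219a-1-3p -0.95 and -0.28. miR-362-3p was larger there, at 0.72 and 1.21. For the 35 higher the median was 0.60 in the vector line, in which they were picked, and 0.45 in the α1ACT line. For the 33 lower it was -0.60 and -0.61.

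**Figure D4:**
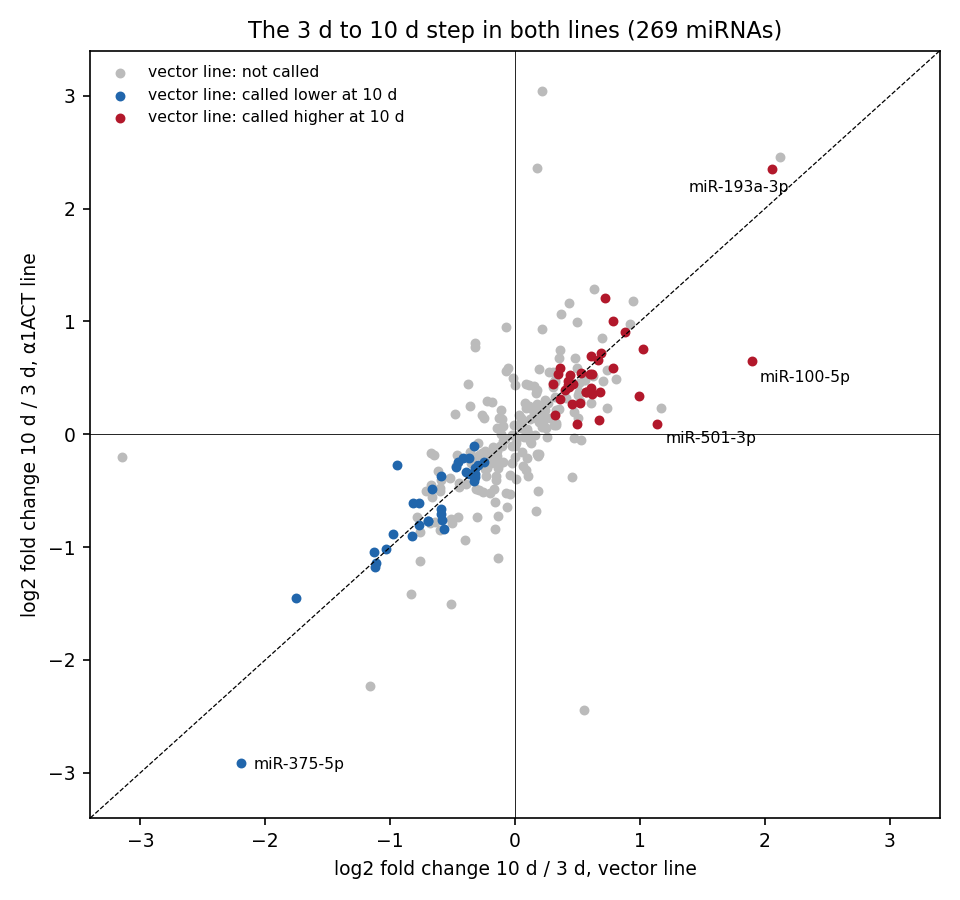
Log2 fold change of 10 d against 3 d in the vector line (x axis) and the α1ACT line (y axis) for 269 miRNAs, coloured by the call in the vector line, with the dashed line marking equal change. All 68 coloured points lie in the quadrants of equal sign, and miR-100-5p (1.89 and 0.65) and miR-501-3p (1.14 and 0.09) lie below the dashed line.

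The difference between the 2 steps was tested in the same fit. No miRNA was called by edgeR at a Benjamini-Hochberg adjusted p below 0.05 (0% of 269), and 12 had an unadjusted p below 0.05. DESeq2 called 1 and limma-voom 0. The smallest p was that of miR-100-5p, with 46.7, 67.6 and 72.9 CPM at 3 d and 99.6, 104 and 88.2 CPM at 10 d in the α1ACT line. Its groups were separate there too, but the step was smaller, 0.65 ± 0.22 beside 1.89 ± 0.23. The difference was 1.25 ± 0.32 on the log2 scale (edgeR, Benjamini-Hochberg adjusted p = 0.208). It was called by DESeq2 (adjusted p = 0.0255), by edgeR without vector 10 d replicate 2 (Benjamini-Hochberg adjusted p = 0.00640), and without α1ACT 3 d replicate 1 (0.0470). The range over the alternatives was 0.00318 to 0.927.

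The 4 next in order did not come near the threshold, all at an edgeR Benjamini-Hochberg adjusted p of 0.891. miR-33-5p, from an intron of a sterol regulatory gene, stood at 108, 81.0 and 82.5 CPM at 3 d and 84.5, 84.0 and 82.9 CPM at 10 d in the vector line and 80.5, 72.0 and 71.8 CPM at 3 d and 95.4, 128 and 108 CPM at 10 d in the α1ACT line, a difference of -0.63 ± 0.22. The groups of the vector line overlapped and those of the α1ACT line did not. miR-210-5p differed by -0.73 ± 0.29, miR-532-5p by -0.61 ± 0.25 and the rare miR-19a-5p by -2.19 ± 0.90. For miR-99b-5p, whose step was 0.99 in the vector line and 0.34 in the α1ACT line, the difference was 0.66 ± 0.29.

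Among the 4 times, 3 d held the lowest or the highest level of most of these miRNAs. Of the 35 higher at 10 d, 31 had their lowest vector mean at 3 d, where 36.4% of all 269 did, and of the 33 lower, 27 had their highest, where 29.4% of all did. The choice of miRNAs by a difference from 3 d favours such a count in the vector line. In the α1ACT line, which took no part in the choice, 3 d was the lowest time for 29 of the 35 (32.3% of all 269) and the highest for 26 of the 33 (29.0% of all). The step from 24 h to 3 d in the vector line, which uses the same 3 d libraries, had a median log2 fold change of -0.39 for the 35 and 0.41 for the 33.

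miR-100-5p had a vector mean of 218 ± 25.8 CPM at 24 h, 54.4 ± 7.25 at 3 d and 195 ± 62.9 at 10 d (SD, n = 3). It had thus fallen by 3 d and stood near its earlier level at 10 d. In the α1ACT line its means were 154, 62.4 and 97.4 CPM, and the level of 10 d stayed below that of 24 h. miR-96-5p went from 239.6 ± 12.8 to 98.3 ± 21.1 and 176 ± 40.1 CPM. miR-760-3p, in the other direction, went from 6.78 ± 0.513 to 18.8 ± 4.48 and 8.47 ± 1.97 CPM. At 10 d each of the 3 had a mean between its means of 3 d and 24 h.

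For others the 10 d mean lay outside the means of 24 h and 3 d. miR-153-3p had 179 ± 34.4 CPM at 24 h, 137 ± 5.6 at 3 d and 234 ± 5.94 at 10 d. miR-484 had 196 ± 18.4, 167 ± 31.2 and 95.6 ± 3.83 CPM, and miR-92a-3p 1729.8 ± 148, 2677 ± 407 and 1236 ± 238 CPM. In the vector line, where the choice of miRNAs again favours the count, 10 d held the highest of the 4 time means for 24 of the 35 (28.3% of all 269) and the lowest for 21 of the 33 (24.5% of all). In the α1ACT line it held the highest for 19 of the 35 (26.0% of all) and the lowest for 20 of the 33 (26.0% of all). The median of 10 d against 24 h was 0.15 for the 35 and -0.10 for the 33 on the log2 scale.

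**Figure D5:**
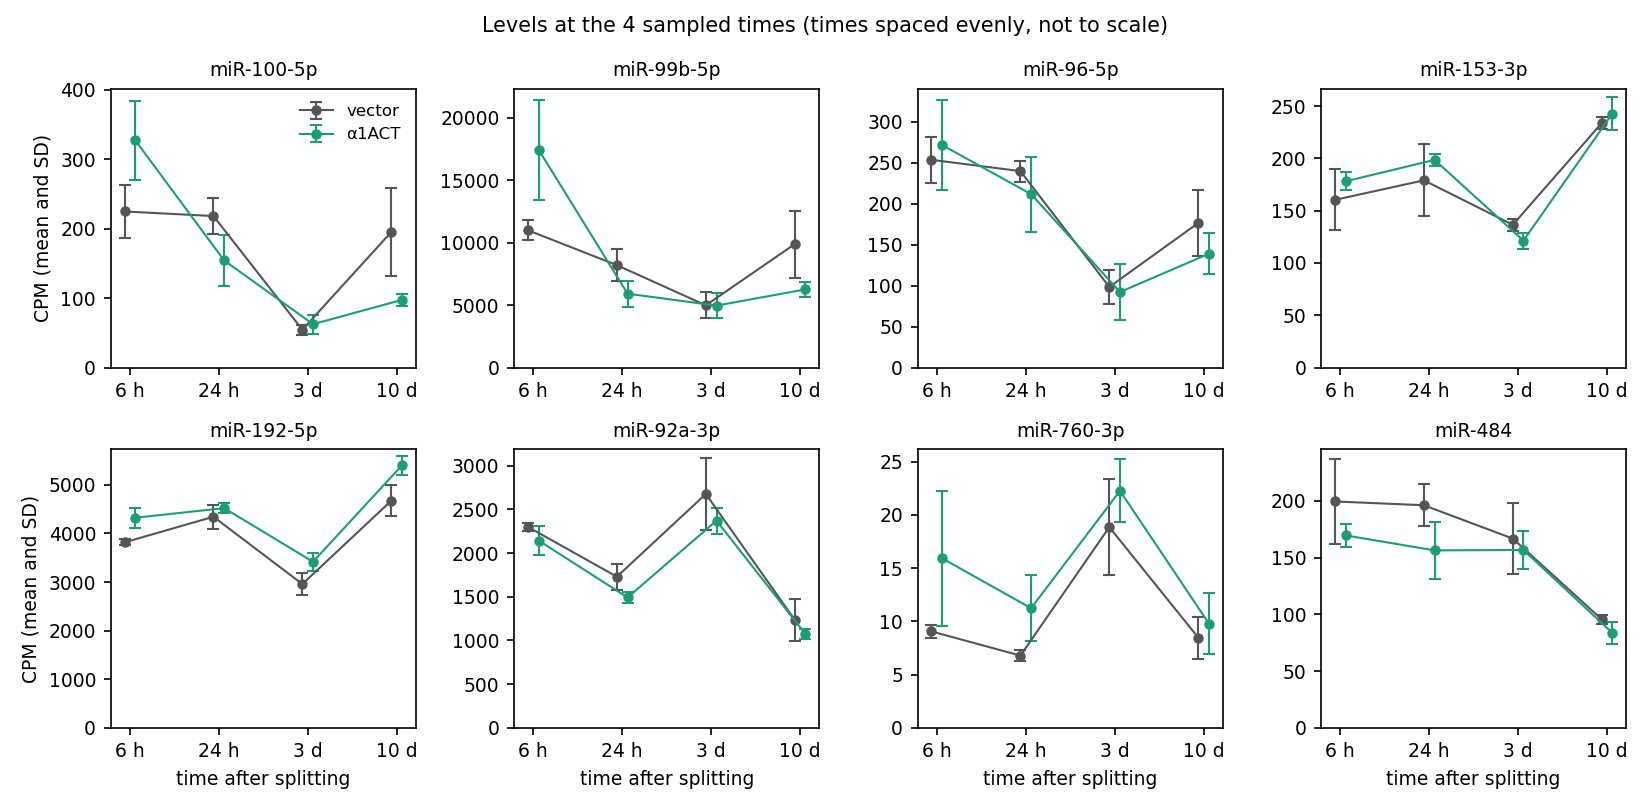
Mean level (y axis, CPM, from 0) with SD of 8 miRNAs by time after splitting, from 6 h to 10 d (x axis, evenly spaced and not to scale) in the vector line (grey; n = 2 at 6 h, 3 elsewhere) and the α1ACT line (green; n = 3). In 7 of the 8 the vector mean of 3 d is the lowest or the highest of the 4 times, while miR-484 has its lowest at 10 d.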

How the data were processed

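A miRNA-enriched RNA fraction of PC12 cells was made into libraries with the Illumina TruSeq small RNA protocol, per the labels' protocols. The authors deposited 2 tables of whole-number read counts per mature miRNA with no normalization, whose names point to sRNAbench (413 entries, used here) and Chimira (627 entries, an alternative). The submitters' processing notes name edgeR. Aligner, genome build and miRBase release: not given in the sources used here. Control columns were taken as the vector line, which the labels do not spell out. In each of the tables, 12 columns matched none of the 23 samples and were not used. An entry with no name, 1 in number with 0 counts (0% of the total), was left out.

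The edgeR package (4.0.16, R 4.3.3) was used. The filter filterByExpr kept 269 entries, which were scaled by TMM and fitted over all 23 libraries in 8 groups with 1 mean per group and robust quasi-likelihood dispersions (common biological coefficient of variation 16.1%). The contrast was vector 10 d minus vector 3 d, and a second contrast subtracted the same step of the α1ACT line. Benjamini-Hochberg adjusted p-values below 0.05 over the 269 were calls. Standard errors come from the fold change and its F value. CPM are counts over the TMM-scaled library total. PCR reads carry no molecular identifiers, so limits for a count of 0 cover counting error only. Replicate libraries differed by more than sampling noise, with a chi-square per degree of freedom of 26.7 to 103, and none was taken as a duplicate. For each library the 2 tables were compared over 154 entries, and 21 of 23 matched their own name.

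The miRNAs, the 26 lists and the naming rule were chosen with earlier results of these data known, so the lists are described by counts and medians with no test. By the rule, named miRNAs are the 12 largest changes per direction and the 5 most abundant among calls of at least 10 CPM, the 5 smallest p of the difference of steps, and up to 4 of each list with the smallest p, with their other arms, seed relatives and neighbours within 10 kb. Uncalled seed or cluster relatives, and miR-193a-3p, were named after their values were seen. Sequences, host genes and neighbours came from RefSeq tables of GRCr8, with strand not considered, and no coordinate was used. Alternatives were 3 scalings, 2 filters, DESeq2 1.42.0, limma-voom (limma 3.58.1), a replicate block, a fit of the compared groups alone, the Chimira table, the exchanged columns, left-out libraries and, chosen after seeing the data, a G and C term. The scripts were tested on simulated counts.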

Additional observations from a re-analysis of the deposited data

How the results depend on the processing

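Of the 68 calls, 66 kept their sign in all 20 alternatives that tested them, and 16 kept their call. The G and C term left miRNAs without a matched sequence unadjusted, so it could not test their calls. Most counts of calls lay within 1.5 times of 68: DESeq2 gave 77, limma-voom 74, a filter at a mean of 10 CPM 68, no filter 59, the compared groups alone 60 and the Chimira counts gave 52 (101 with the columns exchanged). The exchanged sRNAbench columns gave 44. Leaving out single libraries gave 44 to 66, the lowest without vector 10 d replicate 3, so a call near the threshold depends on 1 library. The labels' replicate numbers were not taken as pairs. Same-numbered libraries of 3 d and 10 d had correlations of their deviations of -0.24, -0.29 and 0.20, and differently numbered ones ranged from -0.47 to 0.55. With 3 libraries a time, these values cannot decide whether the numbers pair the samples. With a replicate block 82 were called, among them all 68. For the difference between the lines the count went from 0 to 1 (miR-100-5p) with DESeq2, without vector 3 d library 1 and vector 10 d library 2, and over the left-out libraries (0 to 1), and the cause was not tested. Among the calls and the other miRNAs of the naming rule, signs turned for 4, none of them called in more than 12 of the 20. miR-19a-5p gave -0.012 in the Chimira table, -0.053 with that table's columns exchanged, and between -0.29 and 0.45 over left-out libraries. miR-27b-5p gave 0.085 in the Chimira table and 0.12 with the sRNAbench columns exchanged, and miR-615 gave 0.58 in the Chimira table. miR-33-5p gave 0.16 with upper-quartile factors, -0.15 to 0.035 over left-out libraries and 0.034 without both doubted libraries. Depth limits rare miRNAs: in the shallow library a count of 0 allows up to 6.73 CPM.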

Other observations

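Further called miRNAs were not described above, and those named here were picked after their values were seen. miR-374-5p and miR-421-3p, whose hairpins lie in the Ftx and Jpx region of non-coding genes beside the X-inactivation centre, were both higher at 10 d, by 0.57 ± 0.13 and 0.46 ± 0.10 (SE) on the log2 scale. miR-421-3p measured 2000, 1994 and 2235 CPM at 3 d and 2830, 3129 and 2612 CPM at 10 d. miR-101a-3p, known for lowering the histone methyltransferase Ezh2, rose by 0.42 ± 0.10, from 2966 to 3564 CPM at 3 d to between 4068 and 4685 CPM at 10 d. miR-342-3p in Evl, miR-3068-3p in Alkbh1 and miR-1843a-5p in Dcaf5 rose by 0.62, 0.53 and 0.43. With the term for G and C content the calls of miR-101a-3p, miR-374-5p and miR-421-3p were lost, at log2 fold changes of 0.12, 0.24 and 0.19, and that of miR-421-3p was lost also with the disputed columns exchanged. The calls of miR-342-3p and miR-1843a-5p held in 15 and 13 of 20 other settings.

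miR-378a-3p, from the gene of the metabolic co-activator PGC-1β, was lower at 10 d, at 6857, 6254 and 6144 CPM against 4799, 5163 and 4940 CPM, a log2 fold change of -0.37 ± 0.10. miR-140-3p, encoded in Wwp2 and known from cartilage, changed by -0.42 ± 0.11, and miR-652-3p in Tmem164 by -0.66 ± 0.16. None of these 3 had overlapping groups. The call of miR-140-3p was lost without vector 10 d replicate 1 and with the G and C term. That of miR-652-3p was lost in the Chimira table and with the disputed columns exchanged.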
